A study of Mus musculus with 8 samples.

Results

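Complement is a cascade of plasma proteins that tags microbes, dying cells and debris for removal. The classical pathway starts when C1q, bound to its target, activates the proteases C1r and C1s, which cleave C4 and C2, and the alternative pathway uses factor B and factor D instead. Both routes converge on C3, the most abundant component of plasma complement, and regulators such as CD55 take the C3-cleaving enzymes apart on host cells. In the mammary gland, macrophages are a known source of C1q, and C3 is made by many cell types, epithelium among them. The genes described here were 9 complement components and regulators, of 18749 genes with a matched probe on the array: C1qa, C1qb, C1qc, C1ra, C2, C3, C4b, Cfb and Cd55. They were chosen by name, and their probes by the accession each probe carries.

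No. 4 mammary glands came from 4 wild-type (WT) dams and 4 dams deficient in Th-POK (KO), all female mice of the C57/Bl6 background at lactation day 1. The glands of each dam were hybridized to an array of their own, a one-colour Agilent array on which the log2 brightness of a probe, here called log2 signal, stands for the RNA level. The study describes the mice as age-matched Th-POK knockouts and names no promoter or Cre that would limit the loss to 1 cell type. Th-POK is also needed for CD4 T cells. Of 7 T cell markers tested, 2 were called lower in the KO glands, beside 8.96% of all genes, and 5 were not called. The 2 were Cd3e and Cd4, with KO minus WT differences of -0.60 (adjusted p = 0.0369) and -0.43 (adjusted p = 0.0403) on the log2 scale in limma with Benjamini-Hochberg adjustment. Cd4 was dim, at 4.26 to 4.37 on the KO arrays, and a loss of T cells was not tested. The WT arrays shared 1 slide and the KO arrays a second one, and genotype and slide cannot be told apart for any value that follows. The probe of Zbtb7b, which encodes Th-POK, read between 9.90 and 10.42 on the WT arrays and was well above background on 0 KO arrays, at least 81.5-fold lower. Csn2 and Wap, the milk genes that mark secretory epithelium, were well above background on all 8 arrays. KO array 4 differed somewhat from the other KO arrays. Over all genes tested, 33.6% of its values lay on the WT side of the midpoint between the genotype means, against 18.5% to 22.8% for KO arrays 1 to 3. Its mean correlation with the WT arrays over those genes was 0.969, little above the 0.962 to 0.967 of the other KO arrays. With the other KO arrays its mean correlation was 0.980, where KO arrays 1 to 3 had 0.984 to 0.987. Results that turn on it are given with and without it.

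All 9 complement genes were well above background on all 8 arrays. In limma over the 14137 genes tested, 0 of the 9 had an adjusted p under 0.05. Of all genes tested, 16.5% had one, 7.53% higher and 8.96% lower in the KO glands. Before adjustment, p was under 0.05 for 4 of the 9 (C1ra, C3, C4b and Cfb). The share of all genes under 0.05 before adjustment was not counted, so these 4 are not read as an excess. The methods' t-test, here with the Benjamini-Hochberg adjustment that the methods do not name, also called 0 of the 9, beside 9.83% of all genes. The KO mean was higher for 4 of the 9 genes and lower for 5, with a median difference of -0.05 on the log2 scale against -0.02 over all genes tested. The arrays of the genotypes did not overlap for 1 of the 9, C3, which was lower in the KO glands, where 24.1% of all genes did not overlap, 11.1% with the KO arrays higher and 12.9% with them lower. The members went different ways: C1ra and C4b had higher KO means, C3 and Cfb lower ones, and the C1q chains, C2 and Cd55 had means within 0.12 of each other. Leaving out KO array 4 gave C1ra and C4b adjusted p-values under 0.05, and C3 passed once the replicate number entered the fit as a block. Those fits called 16.2% and 19.5% of all genes.

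**Figure D1:**
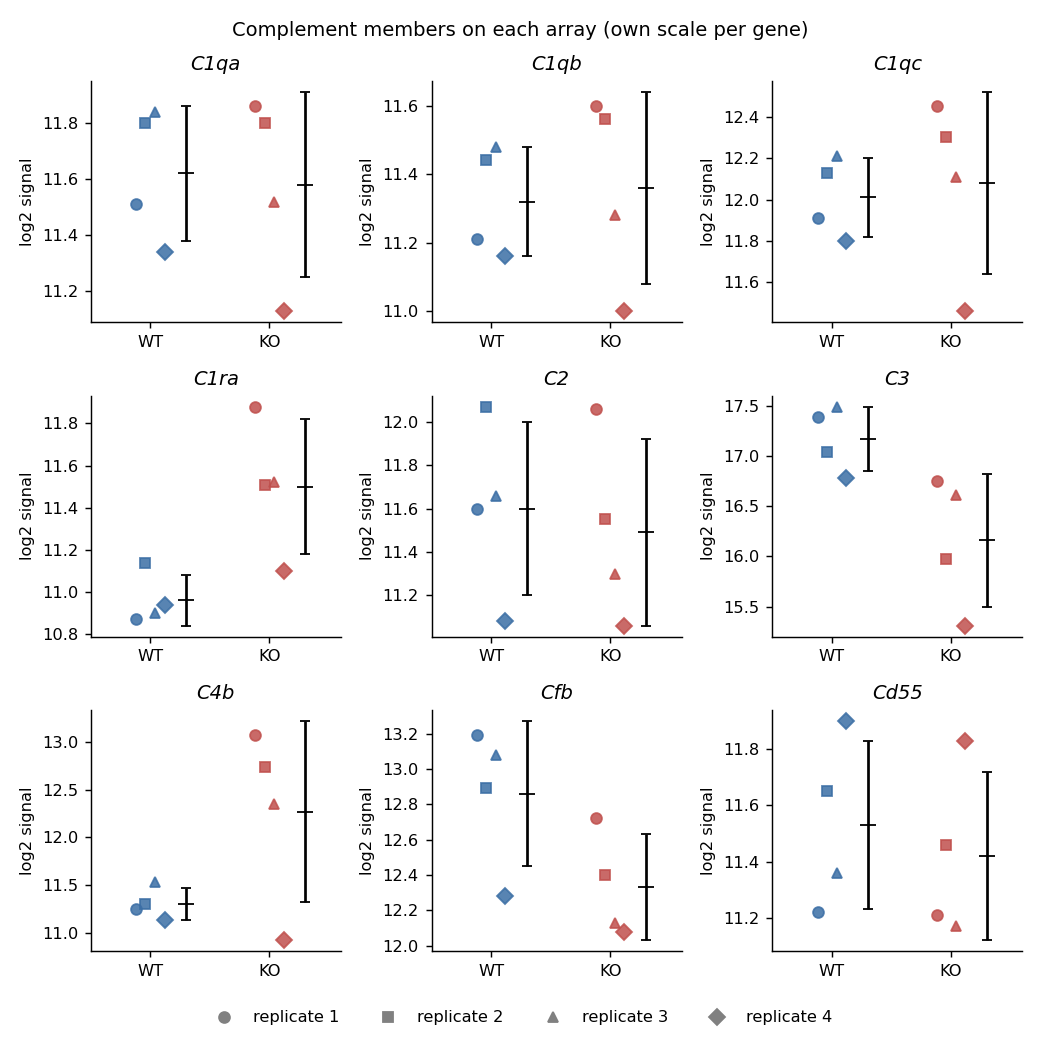
Log2 signal of the 9 complement genes on each array (y axis, a separate scale for each gene), with WT arrays in blue, KO arrays in red, and the mean and SD of 4 arrays as a bar beside each group. For C3 every KO array lies below every WT array (16.75 at most against 16.78 at least), and for C4b KO arrays 1 to 3 lie above all WT arrays while KO array 4, at 10.92, lies below them.

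C1q, the recognition molecule of the classical pathway, is built from the A, B and C chains that C1qa, C1qb and C1qc encode. The probe of C1qa (A_51_P181451) had log2 signals of 11.51, 11.80, 11.84 and 11.34 on WT arrays 1 to 4 and 11.86, 11.80, 11.52 and 11.13 on KO arrays 1 to 4. That of C1qb (A_51_P351860) read 11.21, 11.44, 11.48 and 11.16 in the WT glands and 11.60, 11.56, 11.28 and 11.00 in the KO glands. C1qc (A_51_P102789) had 11.91, 12.13, 12.21 and 11.80 in the WT glands and 12.45, 12.30, 12.11 and 11.46 in the KO glands. The genotypes overlapped for all 3 chains, and in each of them KO array 4 was the lowest of the 8 arrays. The KO minus WT differences were -0.05 for C1qa (95% interval -0.48 to 0.39, adjusted p = 0.881 in limma), 0.04 for C1qb (-0.32 to 0.40, adjusted p = 0.878) and 0.07 for C1qc (-0.42 to 0.56, adjusted p = 0.843).

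The 3 chains followed each other from array to array. Centred on its mean over the 8 arrays, C1qa ran from -0.47 to 0.26, C1qb from -0.34 to 0.26 and C1qc from -0.59 to 0.40. In all 3 chains WT array 4 was the lowest WT array, WT array 3 the highest WT array, KO array 1 the highest KO array and KO array 4 the lowest. Among all genes tested, the profile of C1qa was the nearest to that of C1qb, with a mean absolute difference of 0.061 over the 8 arrays where the median gene differed by 0.278. The genes nearest to C1qa were Gsdmd, the pore-forming protein of pyroptosis, at 0.047, Lpxn at 0.048 and then C1qb at 0.061. Nearest to C1qb after C1qa were Tmem106a at 0.062 and Sp100 at 0.064. Nearest to C1qc were Ctss, a lysosomal protease of antigen-presenting cells, at 0.067, Tyrobp, a signalling adaptor of myeloid cells, at 0.081, and P2ry6, a nucleotide receptor, at 0.081.

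Markers of macrophages are given beside these values. Of 12 macrophage markers, 11 had a probe and were tested, with Cd68 the marker without one. Of the 11, 0 were called, beside 16.5% of all genes. An unadjusted p under 0.05 was found for 0 of the 11 markers, with no share over all genes counted. Their mean was higher in the KO glands for 8 markers and lower for 3. The log2 of their summed signal ran from 13.25 to 13.73 in WT glands and from 13.04 to 13.98 in KO glands. KO array 4 had the lowest sum and WT array 4, at 13.25, the next lowest, as in C1qa, C1qb and C1qc. The brightest marker, Aif1 (10.89 to 12.45), weighed most in that sum. Single markers differed: Adgre1, Csf1r, Mertk, Lyz2, Aif1 and Ms4a7 were lowest on KO array 4. Mrc1, Fcgr1, Cx3cr1 and Trem2 were lowest on WT array 4, and Cd163 on WT array 2. In whole glands, fewer cells of a type and less RNA per cell cannot be told apart, and the part of macrophage number in the C1q values was not tested.

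**Figure D2:**
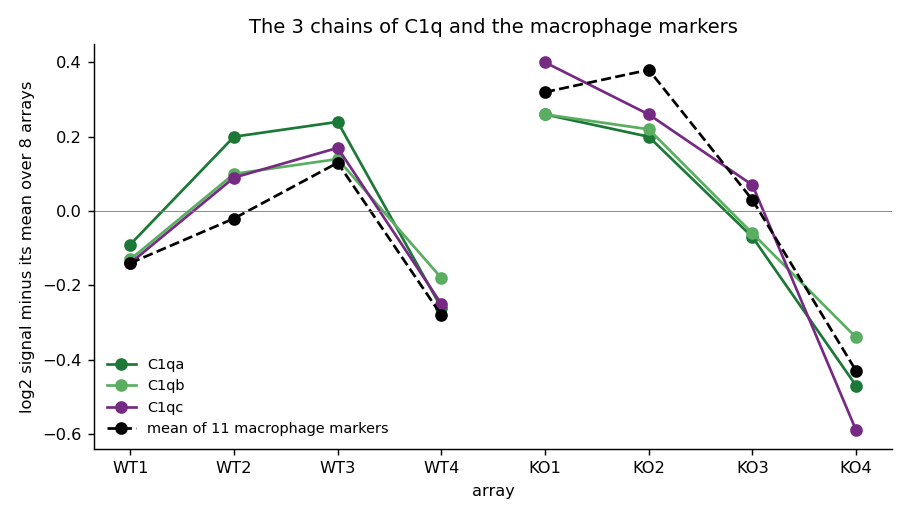
Log2 signal of C1qa, C1qb and C1qc minus each gene's mean over the 8 arrays (y axis) for each array (x axis), with the mean of 11 macrophage markers dashed; the lines only join points of 1 gene, since replicates have no order. All 4 profiles are lowest on KO array 4 (-0.34 to -0.59 for the chains and -0.43 for the markers) and above 0 on KO arrays 1 and 2.

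The 3 C1q genes lie next to each other on chromosome 4 in the order C1qb, C1qc and C1qa. Because they moved together, the letters before their starts are shown for the pair with a promoter in the table used, taken from RefSeq on GRCm38.p6 and running from 250 bases before to 50 bases after the annotated start, 5′ to 3′ on the strand of the gene. Capitals mark a match to 1 of 5 motifs searched on both strands: STAT (TTCNNNGAA), PU.1 (GAGGAAGT), C/EBP (TTGCNNAA), NF-kappaB (GGGNNTTTC) and IRF (GAAANNGAA). Of 32851 promoters of this length, 8.30% held the STAT letters, 3.20% PU.1, 10.8% C/EBP, 4.36% NF-kappaB and 8.56% IRF. The window of C1qb (chr4:136886151-136886450, minus strand) held 0 of the 5. That of C1qc (chr4:136892865-136893164, minus strand) held the PU.1 letters on the opposite strand, beginning 195 bases before the start. A match describes the letters only, and 5 of the 9 genes had a promoter in the table; C1qa, C2, C4b and Cfb were not among them.
C1qb: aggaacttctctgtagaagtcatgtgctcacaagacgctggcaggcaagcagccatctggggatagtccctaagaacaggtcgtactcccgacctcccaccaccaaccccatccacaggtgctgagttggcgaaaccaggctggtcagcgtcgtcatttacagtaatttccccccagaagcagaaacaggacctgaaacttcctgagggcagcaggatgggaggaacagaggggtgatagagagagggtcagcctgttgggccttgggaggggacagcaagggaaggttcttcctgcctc
C1qc: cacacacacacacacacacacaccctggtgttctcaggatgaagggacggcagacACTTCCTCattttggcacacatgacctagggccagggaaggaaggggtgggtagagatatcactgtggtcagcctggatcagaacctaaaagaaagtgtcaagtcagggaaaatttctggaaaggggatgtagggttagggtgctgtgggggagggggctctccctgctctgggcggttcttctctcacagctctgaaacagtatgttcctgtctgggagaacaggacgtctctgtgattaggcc

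C1r is the protease that C1q sets off, and C1ra is its main mouse gene. Its probe (A_51_P384318) read 10.87, 11.14, 10.90 and 10.94 on the WT arrays and 11.88, 11.51, 11.52 and 11.10 on the KO arrays. KO arrays 1 to 3 lay above all WT arrays and KO array 4 lay below WT array 2, so the genotypes overlapped. The WT mean was 10.96 ± 0.12 and the KO mean 11.50 ± 0.32 (SD, n = 4 each). The difference of 0.54, or 1.45-fold (standard error 0.16, 95% interval 0.17 to 0.92), did not pass after adjustment in limma (adjusted p = 0.0552). What arrays of equal replicate number share is not stated, so pairs here follow the labels only. The KO array was the higher of the pair in 4 of 4 pairs of equal replicate number, by 1.02, 0.37, 0.62 and 0.15. Without KO array 4 the difference was 0.68 and passed (adjusted p = 0.0244), and with each array left out in turn it was between 0.41 and 0.68 (adjusted p 0.0244 to 0.125). The near-identical gene C1rb, a paralog whose transcripts C1ra probes may not separate, read 0.15 higher (adjusted p = 0.390), so the split between these genes is uncertain. C1s1, the protease that C1r activates, had a difference of 0.37 (adjusted p = 0.113), and both lie in 1 row of complement protease genes on chromosome 6 (C1rl, C1ra, C1s1, C1rb and C1s2). The gene nearest to C1ra in profile was Fgl2 (mean absolute difference 0.096 over 8 arrays, against 0.369 for the median gene), followed by Gm9961 and Kif13b.

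The window at the start of C1ra (RefSeq, GRCm38.p6, chr6:124512371-124512670, plus strand) is shown because C1ra held more of the 5 motifs than the other windows. It had the C/EBP letters, on the opposite strand, from base 17 after the start and the STAT letters from base 33 after the start, both in capitals.
C1ra: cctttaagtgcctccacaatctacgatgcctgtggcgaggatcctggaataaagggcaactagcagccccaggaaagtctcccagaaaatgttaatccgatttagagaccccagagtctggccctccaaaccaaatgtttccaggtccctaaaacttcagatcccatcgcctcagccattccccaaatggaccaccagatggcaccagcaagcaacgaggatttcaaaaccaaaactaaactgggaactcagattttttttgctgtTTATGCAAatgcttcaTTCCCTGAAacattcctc

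C4 and C2 are the next components that the classical and lectin pathways cleave, and together they form the C3-cleaving enzyme. The probe of C4b (A_51_P428708) read 11.25, 11.30, 11.53 and 11.13 on the WT arrays and 13.08, 12.74, 12.35 and 10.92 on the KO arrays. KO arrays 1 to 3 were each above the highest WT array, whereas KO array 4 was the lowest of all 8. The WT mean was 11.30 ± 0.17 and the KO mean 12.27 ± 0.95 (SD, n = 4 each). The difference of 0.97, or 1.95-fold (standard error 0.41, 95% interval 0.03 to 1.91), was not called (adjusted p = 0.129 in limma). Without KO array 4 it was 1.42 (standard error 0.19, adjusted p = 0.0106), and with each array left out in turn it was between 0.70 and 1.42 (adjusted p 0.0106 to 0.271). By replicate number the pairs differed by 1.82, 1.45, 0.81 and -0.22. The closest profiles were those of Abca1, a cholesterol exporter, at a mean absolute difference of 0.195 against 0.720 for the median gene, then Slc29a3 at 0.225 and Fbxo21 at 0.236.

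C4a, the near-identical copy of C4b, was well above background on 6 arrays and entered no test. Its probe read 4.12, 4.54, 5.01 and 4.11 on the WT arrays and 6.22, 5.65, 5.38 and 3.99 on the KO arrays. KO arrays 1 to 3 were above all WT arrays and KO array 4 below them, the same order as for C4b. Whether the C4a and C4b probes respond to each other's transcripts was not tested, so values of either are uncertain. C2, which lies beside Cfb on chromosome 17, read 11.60, 12.07, 11.66 and 11.08 on the WT arrays (probe A_51_P497985). On the KO arrays it read 12.06, 11.55, 11.30 and 11.06. The genotypes overlapped nearly in full, with replicate 4 the lowest array of each. The difference was -0.11 (standard error 0.26, 95% interval -0.70 to 0.48, adjusted p = 0.786 in limma), and the second C2 probe gave -0.21 (adjusted p = 0.595). The nearest profile was that of Tlr1, a receptor for bacterial lipopeptides (0.079, against 0.368 for the median gene).

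C3 is the component on which all pathways meet, and its cleavage coats targets with C3b. The brighter C3 probe (A_51_P110301) read 17.39, 17.04, 17.49 and 16.78 on the WT arrays and 16.75, 15.97, 16.61 and 15.31 on the KO arrays. Every KO array was below every WT array, but the gap between the nearest arrays was narrow (16.78 against 16.75). The WT mean was 17.17 ± 0.32 and the KO mean 16.16 ± 0.66 (SD, n = 4 each). The difference of -1.01, or 2.02-fold lower (standard error 0.32, 95% interval -1.74 to -0.29), did not pass after adjustment (adjusted p = 0.0598 in limma). With the replicate number as a block it did, at the same -1.01 (standard error 0.16, adjusted p = 0.0178). The KO array was the lower in 4 of 4 pairs, and the pairs differed by -0.64, -1.07, -0.88 and -1.47.

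The dimmer probe of C3 (A_52_P133594) read 9.87, 9.47, 9.88 and 9.01 on the WT arrays and 9.10, 7.57, 8.52 and 7.28 on the KO arrays. Here KO array 1 lay above WT array 4, so the genotypes overlapped. The difference was -1.44 (standard error 0.40), and in the fit over all probes, of which 14.5% were called, this probe passed (adjusted p = 0.0438) and the brighter one did not (adjusted p = 0.0614). C3 also passed with the mean of both probes (-1.23, adjusted p = 0.0493) and with the 75th percentile scaling (-1.15, adjusted p = 0.0423). Replicate 4 was the lowest array of each genotype on both probes, and without KO array 4 the difference of the brighter probe was -0.73 (adjusted p = 0.0745). The nearest profiles, Slc48a1, a haem transporter, at 0.244, Iqcg at 0.245 and Alg12 at 0.256, were each closer than the median gene at 0.588.

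The window at the start of C3 (RefSeq, GRCm38.p6, chr17:57228087-57228386, minus strand) is shown because C3 was the 1 gene of the 9 whose genotypes did not overlap. It held the C/EBP letters, in capitals, beginning 45 bases before the start.
C3: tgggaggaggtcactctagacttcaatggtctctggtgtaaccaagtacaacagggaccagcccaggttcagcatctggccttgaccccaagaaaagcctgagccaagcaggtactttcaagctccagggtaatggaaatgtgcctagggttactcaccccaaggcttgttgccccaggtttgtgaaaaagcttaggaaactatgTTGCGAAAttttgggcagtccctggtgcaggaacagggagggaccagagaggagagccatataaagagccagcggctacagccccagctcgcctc

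Factor B, the product of Cfb, supplies the protease of the alternative pathway's C3-cleaving enzyme. Its probe (A_51_P413866) read 13.19, 12.89, 13.08 and 12.28 on the WT arrays and 12.72, 12.40, 12.13 and 12.08 on the KO arrays. The WT arrays 1 to 3 were above all KO arrays, and WT array 4 lay among them. The WT mean was 12.86 ± 0.41 and the KO mean 12.33 ± 0.30 (SD, n = 4 each). The difference was -0.53, or 1.44-fold lower (standard error 0.23, 95% interval -1.04 to -0.01, adjusted p = 0.131 in limma). The KO array was the lower in 4 of 4 pairs, with differences of -0.47, -0.49, -0.95 and -0.20. The difference passed without WT array 4 (-0.72, adjusted p = 0.0417), and with each array left out it was between -0.72 and -0.42. The nearest profile was that of Dok3, an adaptor of myeloid and B cells (0.114, against 0.418 for the median gene).

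Cd55, or decay-accelerating factor, is the membrane protein that dissociates the C3-cleaving enzymes. Its probe (A_51_P388412) read 11.22, 11.65, 11.36 and 11.90 on the WT arrays and 11.21, 11.46, 11.17 and 11.83 on the KO arrays. The order of the replicate numbers was nearly the same in both genotypes, with number 4 the highest and number 2 next. The difference was -0.12 (standard error 0.20, 95% interval -0.56 to 0.33, adjusted p = 0.698 in limma). Each KO array was below the WT array of its number, by differences of -0.02, -0.19, -0.19 and -0.07, but the fit with the replicate number as a block did not call it either (adjusted p = 0.411). Its neighbour and paralog on chromosome 1, Cd55b, had a difference of 0.36 (adjusted p = 0.193), and how far these probes separate the copies is uncertain. The closest profiles to Cd55 were those of Atp5e at 0.046, Fabp2 at 0.047 and Uqcr10 at 0.047 (median gene 0.328), Atp5e and Uqcr10 being parts of the mitochondrial respiratory machinery.

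KO array 4 set much of the spread among the KO glands. Relative to the WT mean of each gene, it was the lowest KO array for 8 of the 9 genes and the highest for Cd55. It read -0.39 for C4b, where KO arrays 1 to 3 read 1.77, 1.44 and 1.04, and 0.13 for C1ra, where they read 0.92, 0.54 and 0.56. For C3 it went further from the WT mean than the others, at -1.86 against -0.42, -1.20 and -0.57. It therefore lay toward the WT level for C1ra and away from it for C3.

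**Figure D3:**
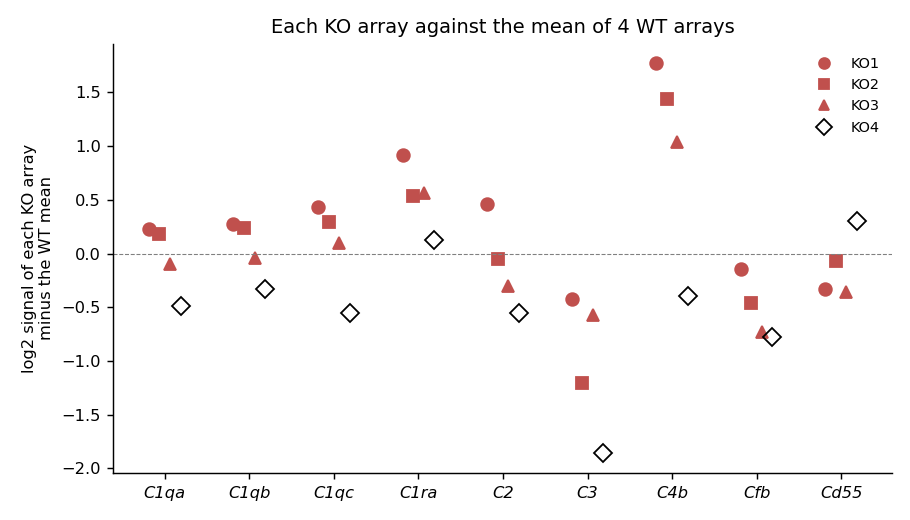
Log2 signal of each KO array minus the mean of the 4 WT arrays (y axis) for the 9 complement genes (x axis), with KO array 4 as open diamonds. It is the lowest KO array for every gene but Cd55, and for C4b it reads -0.39 against 1.04 to 1.77 on the others.

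Beyond the 9 genes, 46 further complement genes were listed by role, of which 45 had a probe and 29 could be tested. Of the 29, 5 rose in the KO glands, 1 fell and 23 did not pass, beside the 16.5% called among all genes. Before adjustment, p was under 0.05 for 11 of the 29. The 16.5% does not apply to that count, and the share of all genes under 0.05 before adjustment was not counted. The genotypes did not overlap for the 5 that rose, for the 1 that fell and for C1rl, beside 24.1% of all genes. Their median difference was 0.16 against -0.02 over all genes tested. The lectin pathway and C1 group had 1 called gene of 7, higher. It was Masp2, the protease that lectins use to cleave C4 and C2, which read 6.82, 6.63, 6.48 and 6.73 on the WT arrays and 7.41, 7.62, 7.16 and 7.32 on the KO arrays. Every KO array was above every WT array, by a mean difference of 0.72 (standard error 0.13, adjusted p = 0.0149 in limma), and it was called in all 17 alternatives. Each of the other 5 called genes was lost in 6 to 10 of the 17, among them the fits without WT array 2, without WT array 3 and without KO array 1, 2 or 3. C1rl, a protease related to C1r, did not overlap in the other direction, at 8.94, 9.77, 9.03 and 9.49 against 8.78, 8.52, 8.45 and 8.89 (difference -0.65, adjusted p = 0.0603). On none of the arrays were Mbl1, Mbl2, Fcnb, Colec10 or Masp1 well above background.

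In the alternative pathway, factor D, the protease that cleaves factor B and a product of adipocytes, had a higher Cfd signal in the KO glands. Cfd read 17.03, 16.87, 17.09 and 17.37 on the WT arrays and 17.83, 17.81, 18.00 and 17.42 on the KO arrays, a difference of 0.68 (standard error 0.16, adjusted p = 0.0268 in limma) with KO array 4 just above the highest WT array. It was also lost under the 75th percentile scaling. Properdin, the product of Cfp, had a difference of -0.16 (adjusted p = 0.637). Cfd and Cfb, enzyme and substrate, thus had differences of opposite sign, of which that of Cfd was called.

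The inhibitors held the other called increases. Cfhr2, a soluble regulator gene of a family with shared sequence and uncertain for that reason, read 7.91, 8.24, 8.11 and 8.28 on the WT arrays and 9.19, 8.95, 8.90 and 8.43 on the KO arrays. It rose by 0.73 (standard error 0.17, adjusted p = 0.0268 in limma), and its second probe gave 0.52 (adjusted p = 0.109). CD59 blocks the membrane attack complex, and its genes Cd59a and Cd59b rose by 0.86 (adjusted p = 0.0418) and 0.71 (adjusted p = 0.0296). The second Cd59a probe gave 0.90 and was not called in the limma fit over all probes (adjusted p = 0.0562). Its genotypes overlapped, with WT array 1 at 9.82 and KO array 2 at 9.75. The second Cd59b probe was well above background on 0 arrays. Whether the Cd59a and Cd59b probes respond to each other's transcripts was not tested, so their 2 calls may not be separate. On the brighter probe of each of Cfhr2, Cd59a and Cd59b every KO array was above every WT array. In counts, 1 of 4 soluble and 2 of 5 membrane inhibitors tested were called, each higher, against 7.53% of all genes. Serping1, the inhibitor of C1r and C1s, had a difference of 0.34 (adjusted p = 0.193).

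Among terminal components, 0 of 3 tested were called, and Hc, which encodes C5, had a difference of 0.59 (adjusted p = 0.0629) that passed under the replicate block (adjusted p = 0.0266) and without WT array 1 (0.69, adjusted p = 0.0412). Of 8 receptors tested, 1 was called, beside 8.96% of all genes called lower. Cd93, a receptor of endothelium and myeloid cells once proposed to bind C1q, read 12.56, 12.49, 12.68 and 12.59 on the WT arrays and 12.08, 12.14, 12.14 and 12.43 on the KO arrays, a difference of -0.38 (standard error 0.11, adjusted p = 0.0453 in limma) that was lost under the replicate block (adjusted p = 0.0599). Itgb2, the shared chain of the C3 fragment receptors CR3 and CR4, had a difference of -0.49 (adjusted p = 0.109), and C3ar1, the C3a receptor, -0.11 (adjusted p = 0.609). C5ar1 was well above background on 0 arrays. Without KO array 4, 8 of these 29 genes were called, beside 16.2% of all genes in that fit. Serping1 (0.50, adjusted p = 0.0443), C1s1 (0.49, adjusted p = 0.0425) and Fcna (0.55, adjusted p = 0.0403) joined the list, and Cd59a left it. A further 3 genes entered that fit because the other KO arrays alone met the filter, and 2 of them, C4a and Cd46, were called; since they entered through the group in which they were high, those calls are not read as results.

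**Figure D4:**
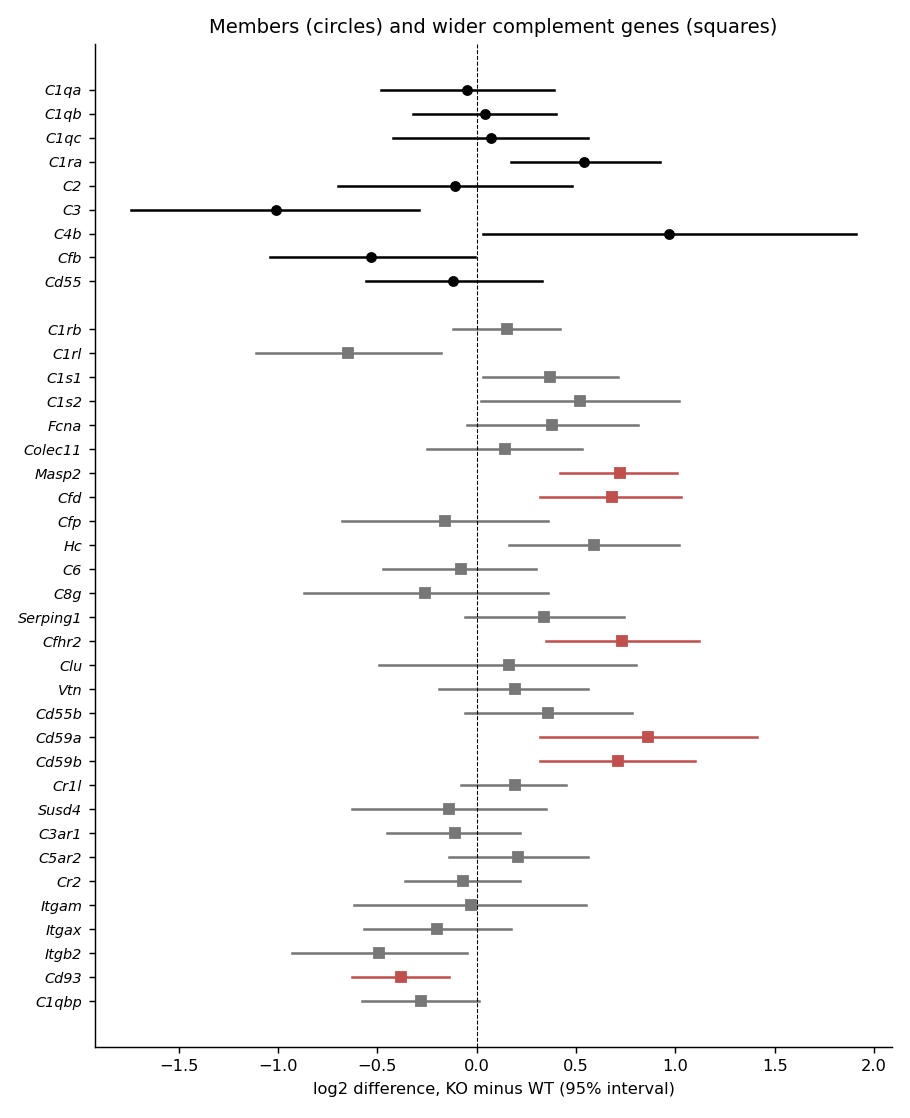
KO minus WT difference in log2 signal (x axis) with its 95% interval for the 9 complement genes (black circles) and the 29 further complement genes tested (squares, red where the adjusted p was under 0.05). The intervals of C1ra, C3, C4b and Cfb exclude 0 without passing after adjustment, and among the squares 5 called genes lie to the right, between 0.68 and 0.86, and Cd93 to the left at -0.38.

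Markers of other cells were read beside these genes, and their part in the complement values was not tested. The counts that follow stand beside the 16.5% of all genes that were called. Of 8 fibroblast markers, all above background on 8 arrays, 1 was called (Dcn, 0.50 higher), and the log2 of their sum was 17.42 to 17.75 on the WT arrays and 17.72 to 18.29 on the KO arrays. Of 8 adipocyte markers, 1 was called (Plin1, 0.71 higher), with sums of 17.36 to 17.85 and 17.82 to 18.27. Of 9 neutrophil markers tested, 3 were called higher (Camp, Ngp and Ltf), with sums of 16.04 to 16.62 and 17.37 to 18.05. Ltf, which luminal epithelium also makes, gave nearly all of that sum, and without it the other 8 summed to 10.82 to 12.95 and 12.98 to 14.24. Camp and Ngp were well above background on 4 arrays each and entered through the KO arrays, where they were high, and Elane was well above background on 0 arrays. The other 6 neutrophil markers, S100a8, S100a9, Csf3r, Mpo, Retnlg and Mmp9, were not called. Of 10 luminal markers, 3 were called higher (Krt18, Epcam and Cldn3), with sums of 20.04 to 20.12 and 20.14 to 20.19. The basal, endothelial and dendritic lists had 0 called genes, and the B cell list 1 (Cd79b, higher). The T cell list had 2 called lower of 7, with sums of 9.19 to 10.61 and 9.29 to 9.69. The marker and complement lists shared 0 genes.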

How the data were processed

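RNA of 8 mammary glands was measured on 8 one-colour arrays. The authors deposited scanner output from Agilent Feature Extraction 10.7, whose intensity values were background-subtracted within each array, and a table of log2 values that the authors had quantile-normalized in GeneSpring. Outlier spots (64 to 100 per array) were left out, and log2 intensities were quantile-normalized and fitted in limma 3.58.1 (R 4.3.3), with Benjamini-Hochberg adjustment over 14137 genes. A probe had to be well above background on all 4 arrays of a genotype. On single arrays, 66.8% to 75.3% of probes were well above background, and 0 spots were saturated. The probe with the highest mean signal stood for a gene. A call is an adjusted p under 0.05. Probe accessions were matched to a RefSeq gene table of GRCm38.p6, which named 27479 of 41174 probes.

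The main fit held genotype only, and the replicate numbers entered a fit only in the replicate block. Deviations from the genotype means correlated within each number (r = 0.219, 0.165, 0.304 and 0.283). The mean of -0.079 between numbers is no separate evidence of pairing. The deviations cancel out within each genotype, which ties that mean to the values within numbers. The methods speak of independent sets of replicates and do not say what arrays of equal number share. The alternatives were 75th percentile scaling, normexp background correction (on median signals, because the files hold no mean signal), the deposited log2 table and other filters. Further ones were the mean of the probes, unmatched probes kept, the replicate block, the methods' t-test and leaving out each array. All kept the Benjamini-Hochberg adjustment, which the methods do not name for their t-test. The named genes were the 9 members, called or non-overlapping genes of the wider list, called markers and the 3 nearest profiles; other wider genes named for their role (C1rb, C1s1, C4a, Cfp, Serping1, Cd55b, Hc, Itgb2, C3ar1, and those called without KO array 4) were chosen after their values were seen. The members and lists were chosen with earlier results of these data known. A gene of the wider list is not reported here and is left out of its counts. The number of arrays limits the precision.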

Additional observations from a re-analysis of the deposited data

Results flagged for a closer look

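Among 76 groups of 4 arrays (both genotypes of the 38 complement genes tested), 3 held an array far from the other 3, where chance sets apart about 1 in 20 groups. Fcna, a ficolin of the lectin pathway, read 8.49 on KO array 4 and 9.14 to 9.20 on the other KO arrays. Cfp, which encodes properdin, read 11.44 on WT array 4 and 11.93 to 12.00 on the other WT arrays. Serping1, the C1 inhibitor gene, read 11.34 on WT array 4 and 11.62 to 11.66 on the others. None of the 3 concerned the 9 genes described.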

How the results depend on the processing

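With 4 dams per genotype, 1 array could carry a call. C3 passed with the 75th percentile scaling (-1.15), the mean of the probes (-1.23) and the replicate block (-1.01). The count of the 9 members called was then 1, lower in the KO glands, beside 17.2%, 16.1% and 19.5% of all genes. The block changed no other call among the members, and the other alternatives on all arrays called 0. With each array left out in turn, 0 to 2 members were called, 0 to 2 of them higher and 0 to 1 lower, beside 3.64% to 21.7% of all genes. The differences then ranged from -0.14 to 0.10 for C1qa, -0.04 to 0.16 for C1qb, -0.05 to 0.28 for C1qc, 0.41 to 0.68 for C1ra, -0.30 to 0.04 for C2, -1.21 to -0.73 for C3, 0.70 to 1.42 for C4b, -0.72 to -0.42 for Cfb and -0.25 to 0 for Cd55. Those of C1qa, C1qb, C1qc, C2 and Cd55 changed sign in 12 cases before rounding, all with an array left out; the cause was not tested. Of the wider genes, the methods' t-test called 2 (1 higher), beside 9.83% of all genes. With an array left out, 1 to 10 were called (1 to 9 higher, 0 to 1 lower), beside the same 3.64% to 21.7%. The 10 include C4a and Cd46, which were not tested with all arrays. The 1 called lower gene became 0 without a filter, with unmatched probes kept and with the block. The block in turn added Hc and gave 6 called higher in place of 5. Over all genes, 2331 were called, against 1389 by the methods' t-test and 519 (without KO array 3) to 3076 (without WT array 1) with an array left out. Genotype and slide could not be separated under any setting.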
